A study of Rattus norvegicus with 9 samples.

Results

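The 10 genes described here encode enzymes that build phosphatidate and triglyceride in the liver, together with the 3 lipins. They are Gpd1, Gpam, Gpat3, Agpat2, Lpin1, Lpin2, Lpin3, Dgat1, Dgat2 and Cds1. They were found by their symbols among the 16730 genes listed for all 9 livers, and all 10 were listed and passed the filter on low counts in each comparison. The list was chosen by read counts in TA VS Model, since Lpin1, Gpat3, Gpd1, Cds1 and Agpat2 had been seen at higher counts in TA livers than in model livers. The TA VS Model values of the 10 genes are therefore a description and carry no test. Model VS Normal shares its model livers, and TA VS Normal its TA livers, with the contrast that chose those 5 genes, so that the p-values of the 5 are not independent of that choice. The same holds for their shares within an enzyme family and for their values beside hepatocyte markers.

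Liver RNA of male Sprague-Dawley rats was sequenced, with 3 libraries in each of the normal control, model and TA groups. The normal control rats received saline. The model and TA rats received CCl4, a solvent that injures hepatocytes, by gavage as 2 ml/kg of a 50% oil solution for 9 weeks. Tormentic acid (TA), a plant triterpene, was then given to the TA rats for 6 weeks. The TA rats therefore carry the CCl4 injury as well, and no sequenced group received TA without CCl4. The study's design gives 3 mg/kg as 1 of its TA doses, but the labels name no dose, and the 3 TA libraries were taken as 1 group. All rats were fasted for 12 h before the livers were taken. Ages are not stated, and the labels do not say whether any animals were pooled, so that p-values measure only the spread between these libraries.

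Glycerolipid synthesis starts when glycerol-3-phosphate, made from dihydroxyacetone phosphate by Gpd1, is acylated at its first position by the GPAT enzymes, among them Gpam and Gpat3. The AGPAT enzymes add the next acyl chain and yield phosphatidate, which stands at a branch point. Lipins remove its phosphate to give diacylglycerol, which Dgat1 and Dgat2 convert to triglyceride, while Cds1 turns phosphatidate into CDP-diacylglycerol for phosphatidylinositol. Lipin-1 also enters the nucleus of hepatocytes as a co-activator of fatty acid oxidation genes and is known to respond to fasting and glucocorticoids.

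Library totals ran from 13156735 to 18090405 counted reads. Model rat 1 stood apart from the other 8 livers. Its 50 most abundant genes held 27.9% of its counts, against 40.4% to 45.7% elsewhere, and its TMM factor, which corrects for such differences in make-up, was 1.72 against 0.819 to 1.17. The tissue label was met by hepatocyte markers, of which 10 of 10 were counted in every liver. Their summed CPM, library-scaled counts after that correction, was 148482 to 183949 in normal livers, 38960 in model rat 1, 111683 and 126677 in the other model livers, and 126833 to 201812 in TA livers. The 7 cholangiocyte markers summed to 20.3 to 35.0 CPM in normal livers, 134 to 1988 in model livers and 38.6 to 62.4 in TA livers. The 9 stellate cell markers in the tables summed to 209 to 304, 1193 to 12464 and 692 to 1184 CPM, and the highest model values of both lists were those of model rat 1. Of the cholangiocyte sum of 1988 CPM in model rat 1, 1817 CPM was Spp1, which is also listed as a macrophage marker. Spp1 was at 44.8 and 26.8 CPM in model rats 2 and 3. In bulk liver RNA, fewer cells of a type and less RNA per cell cannot be told apart.

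Levels of different genes were compared per length, as the FPKM values deposited by the authors, which are fragment counts scaled by transcript length and library size. Gpd1 had the highest median FPKM of the 10 genes, 149 over the 9 livers and never under 42.7, and it ranked first or second in every liver. Dgat2 followed at a median of 96.4 FPKM and Agpat2 at 65.5 FPKM, and these 3 genes took the first 3 ranks in all 9 livers, their ranges overlapping. Dgat1 came next at 27.0 FPKM. Medians were 12.2 FPKM for Lpin2, 9.61 for Lpin3, 6.74 for Lpin1 and 4.69 for Gpam, and the ranges of these 4 genes overlapped. Cds1 and Gpat3 were lowest, with median FPKM of 2.08 and 1.15. The order moved most for Lpin1, whose FPKM ran from 2.26 to 56.7 and whose rank ran from 4 to 9.

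**Figure D1:**
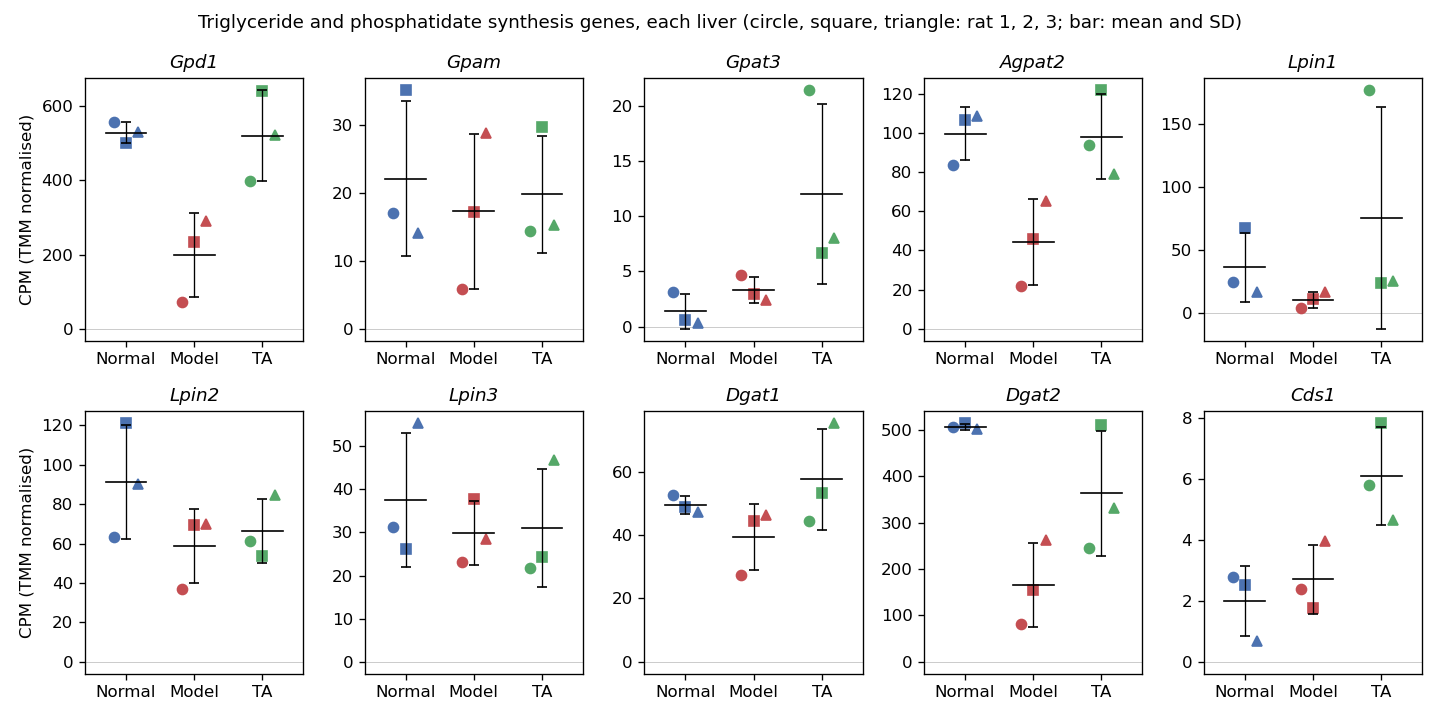
CPM after TMM normalisation (linear axes, 1 panel per gene) in each of the 9 livers, with circles, squares and triangles for rats 1, 2 and 3 of each group and bars for the mean and SD. Lpin1 in TA rat 1, at 177 CPM, lies far above the other 8 livers, and Gpd1, Agpat2 and Dgat2 lie lower in the 3 model livers than in the 3 normal livers.

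Of the 10 genes, 4 were called in Model VS Normal, all lower in model livers, by the study's thresholds of an unadjusted p under 0.05 and an absolute log2 fold change above 1. These were Lpin1, at 3.41-fold lower in model livers, Dgat2 at 3.03-fold, Gpd1 at 2.63-fold and Agpat2 at 2.23-fold lower. Lpin1, Gpd1 and Agpat2 were chosen with these same model livers, so their p-values are not independent of that choice. The same thresholds called 22.1% of the 12730 genes tested in that comparison, with 5.55% lower and 16.6% higher. No adjusted p of the 10 was under 0.05 by the edgeR quasi-likelihood test with Benjamini-Hochberg adjustment, where 7.87% of all genes passed and 28.9% had an unadjusted p under 0.05. By DESeq2 the same 4 genes passed, with adjusted p-values of 0.00225 for Dgat2, 0.0256 for Gpd1, 0.0326 for Agpat2 and 0.0343 for Lpin1, where 20.8% of all genes had an adjusted p under 0.05. For 5 of the 10, the 4 and Dgat1, all model livers lay below all normal livers, against 17.9% of genes tested. The median log2 fold change of the 10 was -0.48, against 0.02 over all genes tested.

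In TA VS Model, 5 of the 10 genes had all TA livers above all model livers, which are the 5 named by the rule, and 10.8% of the 12781 genes tested did so. Nothing is read from this count, since the same contrast chose the genes. The fitted log2 fold change exceeded 1 for 6 of the 10, the 5 and Dgat2, and for 5.3% of all genes. Agpat2, with the smallest difference of the 5, was at a log2 fold change of 1.14, and Dgat2, the nearest gene outside, was at 1.12 with groups that overlapped. The median over the 10 was 1.13, against -0.00 over all genes. In TA VS Normal, 2 of the 10 genes were called, Gpat3 and Cds1, both higher in TA livers, where the thresholds called 5.25% of 12179 genes, 4.24% higher and 1.02% lower. Both were chosen for higher counts in these same TA livers, so their calls and p-values are not independent of that choice. A filter of at least 10 counts in each library removed both. Both genes had all TA livers above all normal livers, as 9.04% of genes did. Neither passed an adjusted p of 0.05 by edgeR, where 0.263% of genes did. With replicate number as a block, which matches different animals by label, Gpat3 passed (adjusted p = 0.00902 by edgeR), as 1.67% of genes did. By DESeq2 without the block Gpat3 alone of the 10 passed, as 2.96% of genes did. The median there was -0.05, against -0.01 over all genes.

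**Figure D2:**
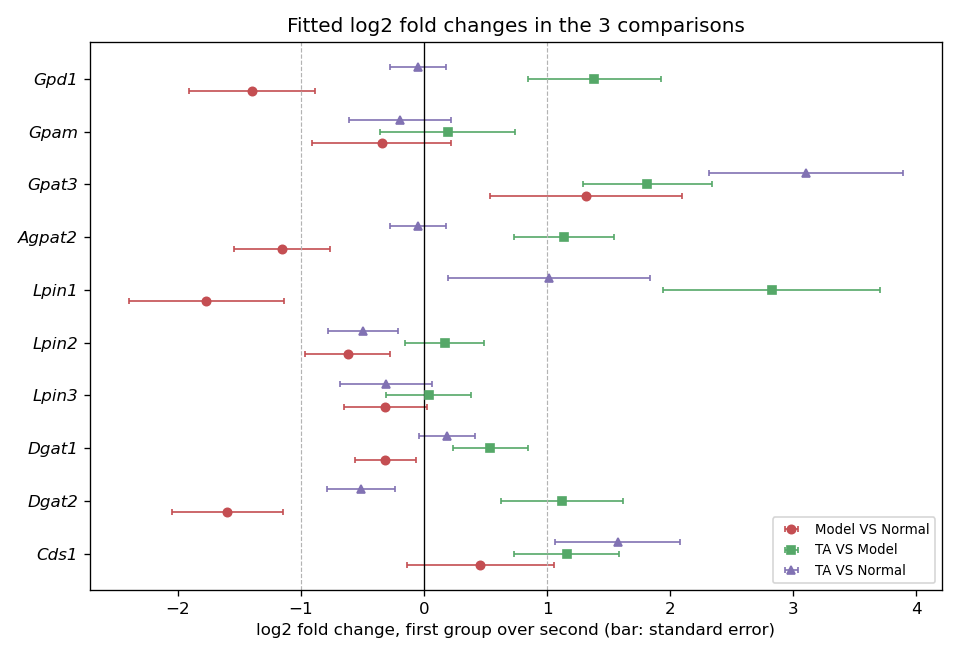
Fitted log2 fold changes (edgeR, first group over second) of the 10 genes in the 3 comparisons, with standard errors as bars and dashed lines at a log2 fold change of 1 in either direction. In Model VS Normal, Lpin1, Gpd1, Agpat2 and Dgat2 lie beyond the left line and Gpat3, not called, lies beyond the right line. In TA VS Normal, Gpat3, Cds1 and, at 1.01 and not called, Lpin1 lie beyond the right line. The TA VS Model points are a description, since that contrast chose the genes.

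Gpd1, the cytosolic glycerol-3-phosphate dehydrogenase that links glycolysis to glycerolipid synthesis, was at 558, 499.9 and 530 CPM in normal livers 1, 2 and 3. It was at 71.3, 234 and 291 CPM in model livers and at 398, 642 and 523 CPM in TA livers. Each model liver lay below each normal and each TA liver, and the normal and TA ranges overlapped. Gpd1 was lower in model than in normal livers by a log2 fold change of -1.40 (SE 0.51, unadjusted p = 0.0262, adjusted p = 0.123 by the edgeR quasi-likelihood test). The exact permutation test gave 0.1, the smallest two-sided p that 3 livers against 3 allow. The TA VS Model difference was 1.38 (SE 0.54), and it was 0.99 without model rat 1. TA and normal livers differed by -0.05 (SE 0.23), less than the standard error. Without any 1 of the normal rats, the Model VS Normal difference kept its direction, at -1.38 to -1.45, and was no longer called.

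Gpam, the mitochondrial GPAT that responds to insulin, was at 17.1, 35.1 and 14.05 CPM in normal livers, at 5.87, 17.2 and 28.7 CPM in model livers and at 14.4, 29.7 and 15.2 CPM in TA livers. The 3 groups overlapped. Its log2 fold change was -0.34 (SE 0.56) in Model VS Normal, 0.19 (SE 0.55) in TA VS Model and -0.19 (SE 0.41) in TA VS Normal, each smaller than its standard error.

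Gpat3, a GPAT of the endoplasmic reticulum, had few counts, 4 to 38 in normal livers, 34 to 106 in model livers and 79 to 299 in TA livers. These gave 3.18, 0.647 and 0.334 CPM in normal livers, 4.68, 3.00 and 2.41 CPM in model livers and 21.4, 6.71 and 7.99 CPM in TA livers. The TA livers lay above the other 6, with TA rat 1 highest, and the normal and model livers overlapped through normal rat 1. TA exceeded normal livers by a log2 fold change of 3.11 (SE 0.79, unadjusted p = 0.00389, adjusted p = 0.185 by the edgeR quasi-likelihood test), and the exact permutation p was 0.1. With the replicate block the difference was 3.29. DESeq2 without the block gave an adjusted p of 0.00202. Without TA rat 1 the TA VS Normal difference was 2.39, and without normal rat 1 it was 4.52. The difference was 1.81 (SE 0.52) in TA VS Model, or 1.11 without TA rat 1, and 1.32 (SE 0.78) in Model VS Normal. With 1 liver left out, the last ran from 0.83 without normal rat 3 to 2.74 without normal rat 1.

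Agpat2, the AGPAT that is most abundant in liver and adipose tissue and whose loss causes lipodystrophy, was at 83.9, 107 and 109 CPM in normal livers. It was at 21.7, 46.0 and 65.2 CPM in model livers and at 93.7, 122 and 79.2 CPM in TA livers. The model livers were again the lowest 3, with model rat 1 below the other two. Agpat2 was lower in Model VS Normal by a log2 fold change of -1.16 (SE 0.39, unadjusted p = 0.0178, adjusted p = 0.102 by edgeR), or -0.85 without model rat 1, where it was no longer called. TA VS Model differed by 1.14 (SE 0.41), or 0.82 without that rat, and TA VS Normal by -0.05 (SE 0.23).

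Lpin1, which encodes lipin-1, was at 24.9, 67.9 and 16.8 CPM in normal livers, at 4.06, 11.3 and 16.6 CPM in model livers and at 177, 24.0 and 25.7 CPM in TA livers. TA rat 1 held 2473 counts of the gene, while the other 8 livers held 92 to 1050. The model livers were the lowest 3, but model rat 3, at 16.6 CPM, lay next to normal rat 3, at 16.8 CPM, and the normal and TA livers overlapped. Lpin1 was lower in Model VS Normal by a log2 fold change of -1.77 (SE 0.63, unadjusted p = 0.0234, adjusted p = 0.116 by edgeR). Without normal rat 2 it was -0.98 and was no longer called, with an unadjusted edgeR p of 0.125. TA VS Model differed by 2.82 (SE 0.88), and by 1.23 without TA rat 1. TA VS Normal differed by 1.01 (SE 0.82), and by -0.59 without TA rat 1, so that its direction rested on that liver.

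Lpin2, the lipin usually most abundant in liver, was at 63.1, 121 and 90.1 CPM in normal livers, at 37.0, 69.3 and 69.9 CPM in model livers and at 61.1, 53.5 and 84.6 CPM in TA livers. Lpin3 was at 31.3, 26.1 and 55.4 CPM in normal livers, at 23.2, 37.9 and 28.6 CPM in model livers and at 21.8, 24.4 and 46.7 CPM in TA livers. Groups overlapped for both genes in every comparison, and neither was called. In Model VS Normal the log2 fold change was -0.62 (SE 0.35) for Lpin2 and -0.31 (SE 0.34) for Lpin3. In TA VS Model it was 0.17 (SE 0.32) for Lpin2 and 0.04 (SE 0.35) for Lpin3. In TA VS Normal it was -0.49 (SE 0.29, exact permutation p = 0.2) for Lpin2 and -0.31 (SE 0.37, exact permutation p = 0.5) for Lpin3. Both genes, like Dgat2, were lower in the TA liver than in the normal liver in 3 of 3 same-numbered pairs. These pairs are matched by label only and are different animals, so nothing is read from this count. With library totals as the only scaling, Lpin3 was at 0.28 in Model VS Normal.

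Shares within a liver do not depend on how libraries are scaled. Of the summed FPKM of the 3 lipins, Lpin1 made up 28.2%, 43.6% and 14.3% in normal livers, 8.84%, 13.4% and 20.6% in model livers and 77.0%, 31.8% and 22.3% in TA livers. TA rat 1 was the single liver in which Lpin1 exceeded the other two lipins together, and the lipins summed to 73.5 FPKM there against 21.8 to 43.0 FPKM in the other 8. Lpin2 made up 36.7% to 39.8% of the sum in normal livers and 41.2% to 44.3% in model livers, groups that did not overlap (exact permutation p = 0.1). The Lpin1 share differed by -14.4 points in Model VS Normal (exact permutation p = 0.2) and by 15.0 points in TA VS Normal (exact permutation p = 0.6), both with overlapping groups. Without TA rat 1 the second difference was -1.64 points. The TA VS Model difference was 29.4 points, or 12.8 points without TA rat 1.

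**Figure D3:**
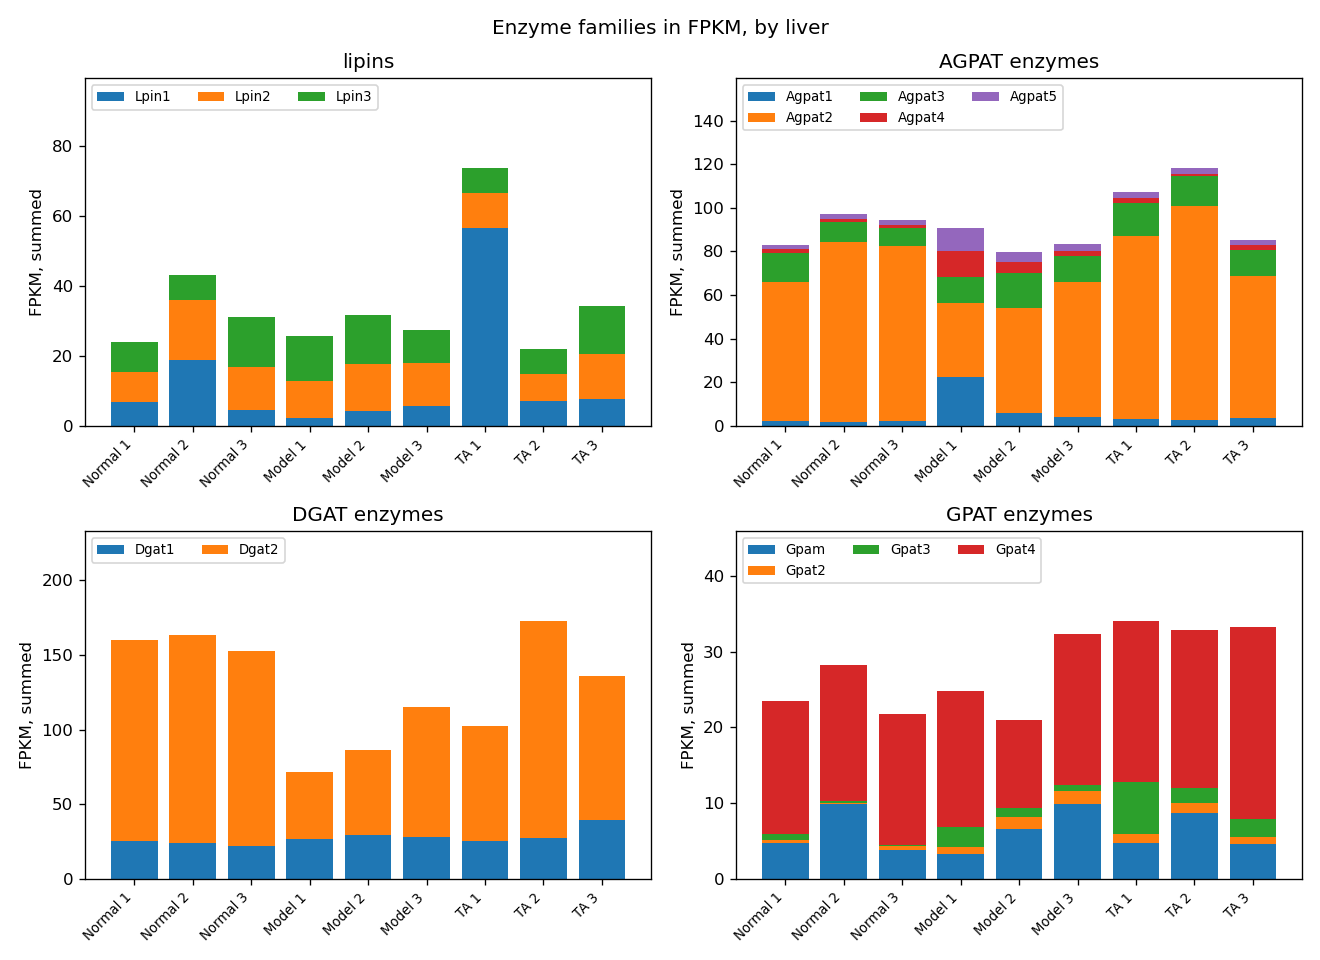
Stacked bars of deposited FPKM (linear axis) for the members of 4 enzyme families in each of the 9 livers. Lpin1 makes up 77.0% of the lipin bar of TA rat 1. Agpat2 makes up 37.2% of the AGPAT bar of model rat 1 and 76.5% or more in the normal and TA livers.

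Dgat2, which esterifies newly made fatty acids in hepatocytes, was at 506, 515 and 502 CPM in normal livers, at 81.6, 154 and 262 CPM in model livers and at 246, 512 and 332 CPM in TA livers. The normal livers lay within a narrow band, the model livers below it, and TA rat 1 fell inside the model range. Dgat2 was lower in Model VS Normal by a log2 fold change of -1.60 (SE 0.45, unadjusted p = 0.00788, adjusted p = 0.0680 by edgeR). It was called in each of the 9 other fits tried for that comparison and in each of the 6 fits that left out 1 liver. TA VS Model differed by 1.12 (SE 0.50) and TA VS Normal by -0.51 (SE 0.28, adjusted p = 0.669 by edgeR).

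Dgat1, the acyltransferase that re-esterifies fatty acids taken up or released by lipolysis, was at 52.8, 48.8 and 47.2 CPM in normal livers, at 27.4, 44.3 and 46.5 CPM in model livers and at 44.3, 53.2 and 75.3 CPM in TA livers. Each model liver lay below each normal liver, but the log2 fold change was -0.31 (SE 0.25, adjusted p = 0.434 by edgeR). With library totals as the only scaling it was 0.25 in the other direction. Of the summed FPKM of both DGAT genes, Dgat2 held 85.0% ± 0.756 (SD, n = 3) in normal livers, 68.0% ± 6.98 in model livers and 76.9% ± 6.74 in TA livers. Model and normal livers did not overlap in this share (exact permutation p = 0.1).

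Cds1, a CDP-diacylglycerol synthase of the endoplasmic reticulum, also had few counts, 8 to 39 in normal livers, 27 to 56 in model livers and 62 to 92 in TA livers. It was at 2.76, 2.52 and 0.669 CPM in normal livers, at 2.38, 1.76 and 3.96 CPM in model livers and at 5.80, 7.81 and 4.63 CPM in TA livers. The TA livers lay above the other 6, which overlapped. TA exceeded normal livers by a log2 fold change of 1.57 (SE 0.51, unadjusted p = 0.0138, adjusted p = 0.325 by edgeR) with an exact permutation p of 0.1. Without TA rat 2 it was 1.34 and was no longer called. The difference was 1.16 (SE 0.43) in TA VS Model and 0.46 (SE 0.60) in Model VS Normal. Of the FPKM of Cds1 and its partner Cds2, Cds1 held 21.96% in normal, 39.6% in model and 43.4% in TA livers, with groups that overlapped in each comparison.

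The AGPAT enzymes were next set side by side. Agpat2 held 76.5%, 84.9% and 85.0% of the summed FPKM of 5 AGPAT genes in normal livers, 37.2%, 60.9% and 74.1% in model livers and 78.1%, 83.3% and 76.6% in TA livers. Model livers lay below normal livers without overlap (exact permutation p = 0.1). The share of Agpat1 was 2.39% in normal and 12.3% in model livers, that of Agpat4 was 1.67% and 7.49%, and that of Agpat5 was 2.32% and 6.98%, each without overlap (exact permutation p = 0.1). Without model rat 1 the model means were 6.10% for Agpat1 and 4.52% for Agpat4. Among the GPAT genes, Gpat4 held most of the FPKM in every group, 72.6% in normal, 63.3% in model and 67.4% in TA livers, and Gpat3 held 1.60%, 6.22% and 11.2%. The Gpat3 mean was 6.61% in TA livers without TA rat 1, 0.528% in normal livers without normal rat 1 and 4.01% in model livers without model rat 1. The Gpat3 share did not overlap between TA and normal livers (exact permutation p = 0.1). Gpat3 was chosen for higher counts in these same TA livers, so this result is not independent of that choice.

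The summed hepatocyte markers moved with these groups. Their log2 difference was -1.05 in Model VS Normal, 0.85 in TA VS Model and -0.19 in TA VS Normal. Alb had the highest CPM of the 10 markers in every liver, and model rat 1 had the lowest sum, at 38960 CPM. In Model VS Normal, 5 of the markers were lower without overlap, as were 17.9% of genes tested. The other 5 overlapped, among them Apoa1 (-0.14) and Tf (-0.39). Each of the 10 genes was also set against the marker sum, as CPM per 100000 CPM of the 10 markers in the same liver. On that scale Gpd1 was at 314, 272 and 357 in normal livers, at 183, 210 and 230 in model livers and at 313, 318 and 412 in TA livers. Model livers remained the lowest 3, and the log2 difference in Model VS Normal was -0.60 (exact permutation p = 0.1). Dgat2 was at 285, 280 and 338 in normal livers, at 210, 138 and 207 in model livers and at 193, 254 and 262 in TA livers on this scale. It was lower without overlap for Model VS Normal, by -0.72, and TA VS Normal, by -0.36 (exact permutation p = 0.1 for both). Of all genes tested, 1.85% and 1.33% were lower without overlap in these comparisons on this scale.

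Agpat2 on the same scale was at 47.2, 58.0 and 73.1 in normal livers and at 55.8, 41.2 and 51.5 in model livers, which overlapped, with a log2 difference of -0.25 (exact permutation p = 0.4). Lpin1 overlapped in every comparison. Gpat3 and Cds1 were higher without overlap in both Model VS Normal, by 2.92 and 1.66, and TA VS Normal, by 3.76 and 2.02 (exact permutation p = 0.1 for each), while TA and model livers overlapped for both. Both genes were chosen for higher counts in these TA livers than in these model livers, so neither comparison is independent of that choice. The gap between model and normal livers was narrow for both genes. Gpat3 was at 12.0, 2.69 and 1.90 in model livers, against 1.79 in normal rat 1, the highest normal liver. Cds1 was at 6.11, 1.58 and 3.13 in model livers, against 1.55 in normal rat 1, again the highest normal liver. Dgat1, lower by CPM, was higher without overlap in Model VS Normal on this scale, by 0.68 (exact permutation p = 0.1), with 70.3 in model rat 1 and 39.7 and 36.7 in the other model livers against 26.5 to 31.8 in normal livers. Of all genes tested, 47.3% were higher without overlap in Model VS Normal on this scale and 10.2% in TA VS Normal. The part of hepatocyte content in the CPM differences was not tested.

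**Figure D4:**
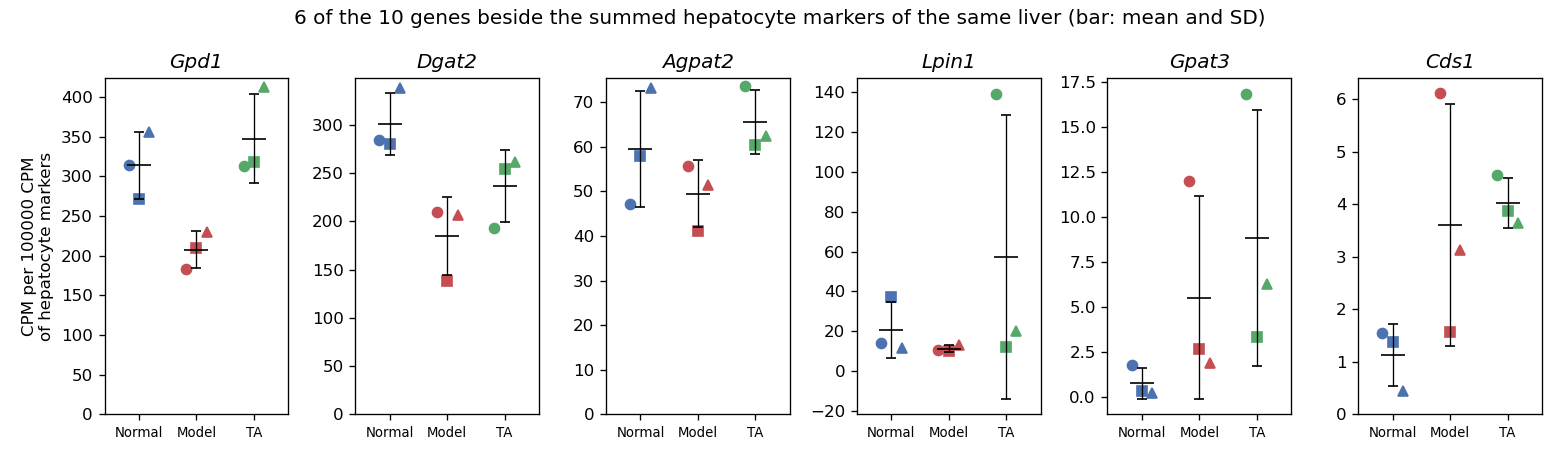
CPM per 100000 CPM of the summed hepatocyte markers of the same liver (linear axes) for 6 genes, with circles, squares and triangles for rats 1, 2 and 3 and bars for the mean and SD. The 3 model livers stay below the normal and TA livers for Gpd1 (183 to 230), while the normal and model livers overlap for Agpat2.

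Fat and muscle, which also use these enzymes, could add their RNA to a liver sample. The 4 adipocyte markers in both tables summed to 31.8 to 80.7 CPM, with overlapping groups. Most of each sum was Cfd, at 24.6 to 75.5 CPM. Cidea was at 5.23 to 16.8 CPM, highest in TA rat 1. Adipoq held 0 to 4 counts and Retn 0 to 3 counts, and Lep, Plin1 and Adig were not listed. The 4 skeletal muscle markers in both tables summed to 0.920 to 4.17 CPM, and TA rat 1, the liver with the highest Lpin1, was at 2.08 CPM. The macrophage markers summed to 274 to 349 CPM in normal livers and to 3677, 275 and 347 CPM in model rats 1, 2 and 3. In TA rats 1, 2 and 3 they summed to 654, 299 and 318 CPM. Members of the list moved in different directions. Spp1 (1817 CPM) and Gpnmb (1116 CPM) led the sum of model rat 1, where Clec4f was at 12.7 CPM. Clec4f, at 301 CPM, led the sum of TA rat 1. The part of these markers in the results was not tested.

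The genes whose profile over the 9 livers was most like that of each of the 5 genes were found by the root mean square (RMS) difference of centred log2 CPM, with genes below a mean log2 CPM of 3 left out. For Lpin1 these were Tsku (0.56), Zfp354a (0.56) and Insig1 (0.57), against a median of 1.44 over 7957 genes. Insig1, which retains SREBP precursors in the endoplasmic reticulum, was at 200.01, 683 and 197 CPM in normal livers, at 29.8, 140 and 192 CPM in model livers and at 555, 224 and 186 CPM in TA livers. Like Lpin1, it was highest in normal rat 2 and TA rat 1 and lowest in model rat 1.

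Xbp1, a transcription factor of the unfolded protein response, was nearest to both Cds1 (RMS 0.27, median over all genes 1.01) and Gpat3 (RMS 1.03, median 1.65). Xbp1 was at 91.0, 86.0 and 42.5 CPM in normal livers, at 88.1, 75.4 and 123 CPM in model livers and at 255, 243 and 137 CPM in TA livers. Next to Gpat3 came Socs2 (1.04) and Aoc3 (1.08), and next to Cds1 came Il6st (0.42) and Mdfic (0.48). Gpat3 itself had an RMS of 1.59 around its own mean, so its nearest genes were not close. Aoc3 was at 27.7, 22.2 and 27.1 CPM in model and 21.1, 11.5 and 16.1 CPM in TA livers, the reverse of Gpat3. Gpd1 was closest to Rbpms2 (0.19), Azgp1 (0.20) and Vtn (0.20), of which Vtn and Azgp1 encode proteins that the liver secretes. Agpat2 was closest to Cyp39a1 (0.13), an oxysterol hydroxylase, Slc22a18 (0.14) and Tas1r2 (0.14).

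Promoter sequence is shown for the 4 of the 5 genes that have an entry in the RefSeq promoter table (assembly GRCr8), as the 250 bases before the start on the minus strand that the table uses. Gpd1 had none, and 7 of the 10 genes had an entry. Capitals mark the CCAAT box (CCAAT) in Lpin1 and GC boxes (GGGCGG) in Agpat2 and Cds1, on either strand. No motif searched was found in the Gpat3 window.
Lpin1 promoter, chr6:45108943-45109192, minus strand: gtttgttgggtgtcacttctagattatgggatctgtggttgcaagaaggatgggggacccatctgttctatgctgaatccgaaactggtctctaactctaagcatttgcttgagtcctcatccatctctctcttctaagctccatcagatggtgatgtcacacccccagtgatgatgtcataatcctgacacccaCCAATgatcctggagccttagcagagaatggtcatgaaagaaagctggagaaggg
Gpat3 promoter, chr14:9070866-9071115, minus strand: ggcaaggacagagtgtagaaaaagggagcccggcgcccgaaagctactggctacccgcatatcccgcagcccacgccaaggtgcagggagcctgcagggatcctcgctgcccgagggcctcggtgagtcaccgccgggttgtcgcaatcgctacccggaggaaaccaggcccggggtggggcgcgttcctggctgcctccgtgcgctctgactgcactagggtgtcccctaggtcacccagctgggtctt
Agpat2 promoter, chr3:29826158-29826407, minus strand: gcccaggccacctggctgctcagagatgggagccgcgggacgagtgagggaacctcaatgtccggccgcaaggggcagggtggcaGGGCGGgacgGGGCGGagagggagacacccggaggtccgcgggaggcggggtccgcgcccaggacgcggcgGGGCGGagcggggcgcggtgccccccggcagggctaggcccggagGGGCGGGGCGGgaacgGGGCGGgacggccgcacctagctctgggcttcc
Cds1 promoter, chr14:8187244-8187493, minus strand: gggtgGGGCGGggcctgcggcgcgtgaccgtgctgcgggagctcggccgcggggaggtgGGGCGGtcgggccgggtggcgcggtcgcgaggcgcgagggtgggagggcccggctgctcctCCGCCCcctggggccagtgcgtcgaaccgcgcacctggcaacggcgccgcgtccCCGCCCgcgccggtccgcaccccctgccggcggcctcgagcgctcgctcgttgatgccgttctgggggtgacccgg
The start used lies 36903 bases inside the annotated Lpin1 gene, 1687 bases inside Gpat3 and 412 bases inside Agpat2, and at the first base of Cds1, so that other starts of the first 3 genes are not covered. The CCAAT box of Lpin1 begins 55 bases before that start. Agpat2 holds 6 GC boxes and Cds1 holds 4. Among the 7 promoters, CCAAT was found in 3 (Lpin1, Lpin3 and Gpam) and GGGCGG in 2, against 34.3% and 32.4% of the 27457 promoters in the table. The E-box CACGTG, the sterol response core TCACNCCAC, the cAMP response site TGACG and the TATA box TATAAA were found in none of the 7, against 5.79%, 0.976%, 19% and 13.1% of all promoters. Both strands were searched for each motif.

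The rest of the pathway was followed through 11 lists of other genes, from glycerol-3-phosphate supply to lipid droplet proteins. Of 69 genes tested in Model VS Normal, 4 were called higher and 5 lower, 13.04% against the 22.1% of all genes. By DESeq2 the same thresholds called 28.99% of the 69, against 24.5% of all genes, and by voom 33.3% against 23.1%, so that which share was larger depended on the tool. TA VS Model gave 4 higher and 3 lower of 70, 10% against 12.3% of all genes, of which 2.11% were higher and 10.2% lower. None of the 70 had an adjusted p under 0.05 by edgeR. The edgeR test gave no gene of the whole table an adjusted p under 0.05 in TA VS Model, a share of 0%, while 1999 genes, 15.6%, had an unadjusted p under 0.05. DESeq2 gave 541 genes, 4.23%, an adjusted p under 0.05 there. Of 69 tested in TA VS Normal, 3 were higher and 1 lower, 5.80% against 5.25%, with 1.02% of all genes called lower. The median log2 fold change of these genes was -0.48, 0.44 and -0.02 in the 3 comparisons.

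**Figure D5:**
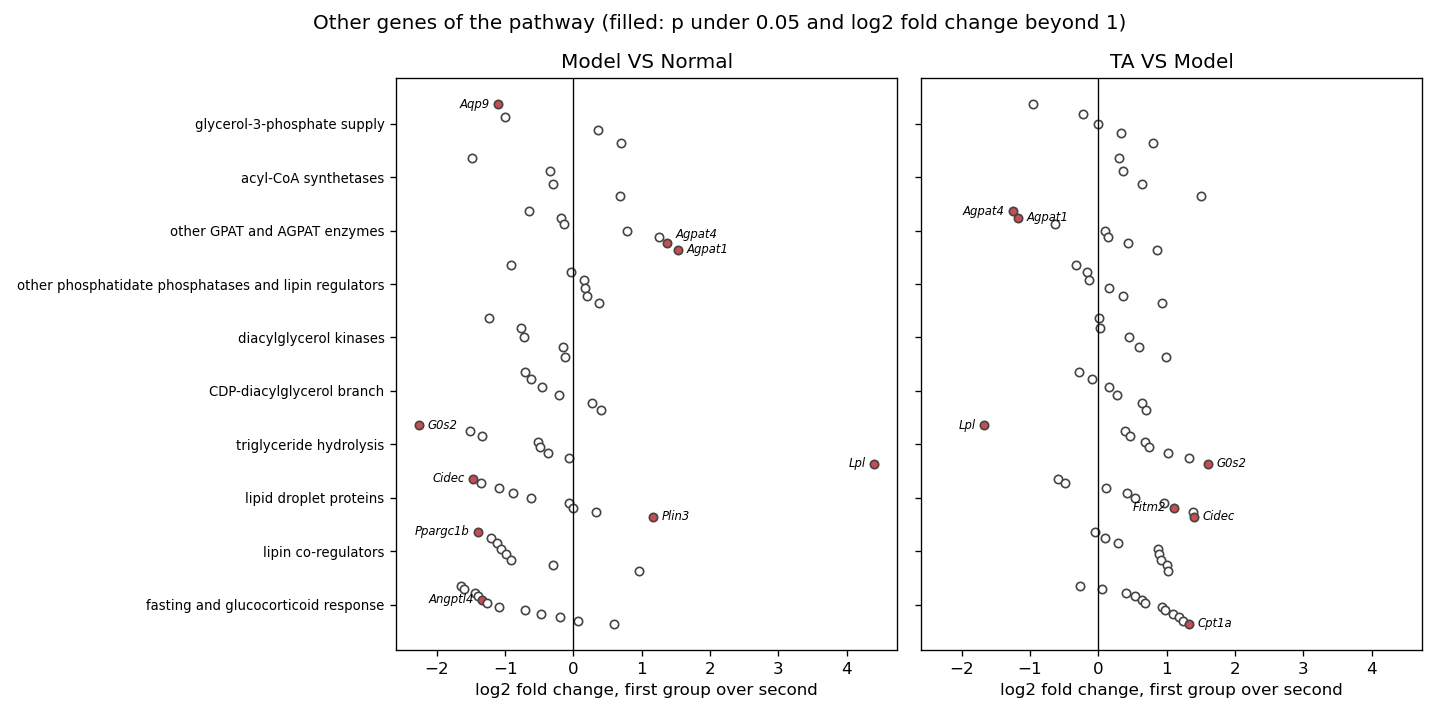
Fitted log2 fold change (edgeR, first group over second) of each tested gene of the 10 lists with a tested gene, in Model VS Normal (left) and TA VS Model (right), filled where p was under 0.05 and the fold change beyond 1. Lpl stands apart at 4.40 for Model VS Normal and at -1.67 for TA VS Model.

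In glycerol-3-phosphate supply, Aqp9, the channel through which hepatocytes take up glycerol, was at 171 to 242 CPM in normal and 45.2 to 122 CPM in model livers. It was called lower in Model VS Normal with a log2 fold change of -1.10, 1 of 4 genes tested. Glycerol kinase Gk, at 399 to 517 CPM in normal and 59.6 to 427 CPM in model livers, was not called. None of the 5 genes tested was called in TA VS Model. Among the acyl-CoA synthetases, Acsl1, which primes fatty acids for use, was at 1655 to 2403 CPM in normal, 149 to 1572 CPM in model and 1827 to 2181 CPM in TA livers. Neither of its comparisons with the model livers was called (unadjusted edgeR p of 0.103 and 0.102), although the groups did not overlap. Acsl3 was the 1 gene of the 4 called in TA VS Normal, higher by 1.01.

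Among the other GPAT and AGPAT genes, Agpat1 was at 7.31 to 9.04 CPM in normal, 12.7 to 41.6 CPM in model and 9.43 to 11.8 CPM in TA livers. It was called higher for Model VS Normal (1.53, SE 0.46) and lower for TA VS Model (-1.18, SE 0.46), the reverse of the directions of Agpat2. Agpat4 was called likewise (1.37 and -1.25), with overlapping groups in both. Gpat4 was called in none, with 0.86 in TA VS Model (adjusted p = 0.277 by edgeR), and Gpat2 was called higher in TA VS Normal (1.31).

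No call was made in 6 other phosphatidate phosphatase and lipin regulator genes, among them Ctdnep1, a phosphatase that acts on lipin-1, at 38.4 to 64.9 CPM over the 9 livers. Plpp3 was at -0.92 (SE 0.49) for Model VS Normal and at 0.94 (SE 0.54) for TA VS Model. The 5 diacylglycerol kinases tested, which return diacylglycerol to phosphatidate, also gave no call, with Dgkq at -1.24 (SE 0.56) and Dgkz at -0.16 (SE 0.27) in Model VS Normal. The 6 other genes of the CDP-diacylglycerol branch, synthases of that lipid and the enzymes that use it, gave none either, with Cdipt at -0.21 (SE 0.23) and Crls1 at -0.46 (SE 0.35). The 5 other acyltransferases of the MOGAT and DGAT2 family were too low to be tested.

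Triglyceride hydrolysis held the largest differences of the lists. Lpl, lipoprotein lipase, was at 10.3 to 24.0 CPM in normal, 261 to 512 CPM in model and 67.5 to 169 CPM in TA livers, with no overlap between any groups. Its log2 fold change was 4.40 (SE 0.48, adjusted p = 0.00871 by edgeR) in Model VS Normal, -1.67 (SE 0.46, adjusted p = 0.252) in TA VS Model and 2.70 (SE 0.41, adjusted p = 0.0511) in TA VS Normal. G0s2, an inhibitor of adipose triglyceride lipase, was at 589 to 663 CPM in normal, 60.4 to 236 CPM in model and 165 to 526 CPM in TA livers. It was called lower in Model VS Normal (-2.26, SE 0.53, adjusted p = 0.0438 by edgeR) and higher in TA VS Model (1.60, SE 0.63), where the groups overlapped. Ces1d and Lipc, at -1.52 (SE 0.90) and -1.34 (SE 0.61) in Model VS Normal, were not called. Pnpla2, adipose triglyceride lipase itself, was listed in 1 of the 2 tables only and was not tested.

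Among 9 lipid droplet genes tested, Cidec, which fuses droplets, was at 86.4 to 100.4 CPM in normal, 15.1 to 49.6 CPM in model and 66.4 to 101 CPM in TA livers. It was called lower in Model VS Normal (-1.47, SE 0.40) and higher in TA VS Model (1.41, SE 0.42). Fitm2, which aids droplet formation, was called higher in TA VS Model (1.11), and Plin3 was called higher in Model VS Normal (1.16, SE 0.27, adjusted p = 0.0425 by edgeR). Plin2, the main droplet coat protein of hepatocytes, was at 82.5 to 282 CPM with overlapping groups.

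Of 8 transcription factors and co-activators listed as partners of lipin-1 or as regulators of hepatic lipid genes, Ppargc1b was called lower in Model VS Normal (-1.40, SE 0.49), and Ppara was called lower in TA VS Normal (-1.15, SE 0.42). Ppara was at 13.5 to 33.0 CPM in normal, 1.54 to 17.3 CPM in model and 5.45 to 12.5 CPM in TA livers. Hnf4a was at 477 to 515, 78.3 to 334 and 461 to 548 CPM, and its differences of -0.98 and 1.02 from the model livers were not called. Of 12 genes of the fasting and glucocorticoid response, which share inputs with Lpin1, Angptl4 was called lower in Model VS Normal (-1.34) and Cpt1a higher in TA VS Model (1.33). Pck1 was at 4621 CPM in TA rat 1 and at 4159 and 2720 CPM in the other TA livers. The list median was -1.18 for Model VS Normal, against 0.02 over all genes, and 0.81 for TA VS Model, against -0.00. Such shifts were not particular to this list. In the same 2 comparisons, the medians were -0.79 and 0.80 for the hepatocyte markers, and -1.02 and 0.88 for the 8 transcription factors and co-activators.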

How the data were processed

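Liver RNA of 9 rats was measured by polyA RNA-seq. The authors mapped paired reads with STAR and counted them with HTSeq-count. The methods name a human genome and the submitters' processing notes a mouse build, while the gene symbols are rat symbols, so that the reference was not settled. Whether counting used strand is not stated. The authors deposited raw counts per gene in a pair of tables (16938 and 16948 genes, 16730 in both) that share identical model counts, and FPKM values per gene that the authors deposited served to compare levels between genes. Size-factor normalized columns (12) and 6 columns of the authors' fold changes and p-values were not used.

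Counts were tested with edgeR 4.0.16 (R 4.3.3), by the quasi-likelihood test with TMM, filterByExpr and the 6 libraries compared, adjusted by Benjamini-Hochberg over all genes tested. The SE is the log2 fold change over the square root of F. CPM used TMM over all 9 libraries, with a prior count of 2 for log2 values. Alternatives were DESeq2 1.42.0, limma 3.58.1 voom with quality weights, the newer quasi-likelihood form, other scalings and filters, all libraries in 1 fit, a replicate block and leaving out each library. Replicate numbers come from the labels, and same-numbered rats are different animals. Their deviations from the group means correlated at 0.23, 0.37 and 0.45 in TA VS Normal and at -0.06 to 0.21 in Model VS Normal. Differently numbered rats ran from -0.39 to 0.14 in TA VS Normal. No pairing of animals is stated, so the block is an alternative only and the main fits use none. Library totals were 13156735 to 18090405 reads, and Gpat3 and Cds1 had the lowest median counts of the 10 genes.

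The genes and lists were chosen with earlier results of these data known. Genes named are the 10, the 3 nearest in profile to each of 5, and list genes called in any comparison or, up to 2 per list, the most abundant uncalled ones.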

Additional observations from a re-analysis of the deposited data

How the results depend on the processing

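Scaling by library totals alone moved the median log2 fold change of all genes to 0.65 in Model VS Normal, -0.48 in TA VS Model and 0.18 in TA VS Normal. Of the 10 genes, 4 were called in Model VS Normal, against 2 by library totals (Dgat2, and Gpat3 as higher) and 2 to 4 when 1 liver was left out, with 2 without normal rat 2. The log2 fold change exceeded 1 for 6 in TA VS Model, against 3 by library totals and 3 to 6 with 1 liver left out, with 3 without model rat 1 or TA rat 2. In TA VS Normal 2 were called, against 0 when each library needed at least 10 counts, a filter that removes Gpat3 and Cds1, and 1 to 2 with 1 liver left out, with 1 without TA rat 2.

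Of the other pathway genes, 9 were called in Model VS Normal, against 20 with DESeq2, 23 with voom, 14 by library totals, 17 without a filter, 14 with all libraries in 1 fit, 17 with the replicate block and 7 to 29 with 1 liver left out, the highest without model rat 3. Beside all genes, the list share was lower by library totals (20.3% against 31.1%) and with all libraries in 1 fit (19.7% against 23.6%), about equal without a filter (20.48% against 20.52%), and higher with the replicate block (24.6% against 22.95%) and without model rat 3 (39.2% against 29.8%). In TA VS Model 7 were called, against 18 with voom (25.7% against 13.4% of all genes) and 2 to 23 with 1 liver left out, the lowest without model rat 1 and the highest without model rat 3. In TA VS Normal 4 were called, against 2 to 5 with 1 liver left out, with 2 without normal rat 1 or TA rat 2. The cause of these shifts was not tested.

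The Lpin1 share difference in TA VS Normal, 15.0 points, ran from -1.64 to 25.7 with 1 liver left out. Same-numbered rats are different animals, so matching them by number is an alternative only. The sign-flip test on such pairs gave an exact p of 0.75 for that share difference in TA VS Normal and 0.5 in Model VS Normal, where 0.25 is the smallest possible. With replicate number as a block, 5 of the 10 genes were called in Model VS Normal, Gpat3 being added (1.76, adjusted p = 0.121 by edgeR). Deviations of same-numbered rats correlated at only -0.06 to 0.21 in that comparison, so no pairing stands behind the added call.

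In the tested comparisons, the alternatives run turned the direction of uncalled differences of the 10 genes and of no called one. In Model VS Normal it turned by voom for Lpin3 (0.17) and Cds1 (-0.10), by library totals for Lpin3 (0.28), Gpam (0.11) and Dgat1 (0.25), and beside the hepatocyte markers, a scale added after seeing the data, for Lpin2 (0.40), Lpin3 (0.76), Gpam (0.53) and Dgat1 (0.68). In TA VS Normal it turned by voom for Agpat2 (0.0712) and Dgat1 (-0.0300), by library totals for Agpat2 (0.13) and Gpd1 (0.12), and beside the hepatocyte markers for Gpam (0.0694), Agpat2 (0.16) and Gpd1 (0.14). With 1 liver left out, the values ran from -0.53 to 0.0488 for Lpin3 and -0.94 to 0.14 for Gpam in Model VS Normal. In TA VS Normal they ran from -0.59 to 1.83 for Lpin1, -0.73 to 0.0761 for Lpin3, -0.62 to 0.32 for Gpam, -0.24 to 0.0830 for Agpat2, -0.0521 to 0.34 for Dgat1 and -0.24 to 0.11 for Gpd1. In TA VS Model, which has no test, it turned by library totals for Lpin2 (-0.23), Lpin3 (-0.41) and Gpam (-0.14), by voom for Lpin2 (-0.18) and Lpin3 (-0.51), and beside the hepatocyte markers for Lpin2 (-0.64), Lpin3 (-0.86), Gpam (-0.46, without overlap) and Dgat1 (-0.30). Of all genes tested, 21.4% were lower without overlap in TA VS Model on that scale. The direction also turned for Lpin3 with the replicate block (-0.0222) and with at least 10 counts in each library (-0.00484), and for Lpin2, Lpin3 and Gpam in 2 of the 6 fits each that left out 1 liver.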
